A study of Trametes coccinea with 9 samples.

Results

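The 131 genes described here were chosen from the deposited normalized counts of *P. coccineus* because their transcripts were abundant on maltose and low on both woods. With 10 added to each group mean, the maltose mean had to be at least 200 and at least 6 times both the pine mean and the aspen mean. Of the 11202 genes in the normalized tables, 138 met these limits, and 7 of them, all assigned to enzyme families, were left out by the rule. A further 57 genes met the limits for maltose and pine only, and 76 met those for maltose and aspen only.

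The libraries came from the monokaryotic strain CIRM-BRFM 310, grown in liquid culture for 3 days at 30 °C with 3 independent cultures per condition. The maltose cultures held 20 g/l maltose, and the pine cultures held 15 g/l ground and sifted pine, bark included. The aspen cultures held 15 g/l Wiley-milled aspen, and the methods give 2.5 g/l maltose for both wood media. A response to wood therefore cannot be told apart from a response to less maltose, and the wood species cannot be told apart from bark or the way of milling. All 9 libraries were from poly A RNA of 1 strain, with 28399534 to 38654866 counts each. Of 38 cellulose-active enzymes, which cut or oxidize the main polymer of wood, 35 were called higher on pine than on maltose and 35 higher on aspen. The limit was an edgeR Benjamini-Hochberg adjusted p under 0.05, at which 29.1% and 26.3% of all genes tested were called higher.

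White-rot fungi such as *P. coccineus* live on wood polymers, which they break down outside the cell with secreted hydrolases, oxidases and peroxidases. Maltose, a disaccharide of glucose, is taken up and used without these enzymes, and fungi generally keep many genes for polymer breakdown low while such a sugar is plentiful. The genes here run the other way, being high on the sugar. Few carry a known role: 46 of the 131 are listed by the study as encoding proteins of unknown function, 3 are in carbohydrate-active enzyme (CAZy) families, 1 is a cytochrome P450, 7 encode proteins detected among secreted proteins, and 77 appear in none of these lists. The reference annotation used here pairs the gene numbers with positions but with no product names, so these 77 are given by number. Apart from these lists, the study names the member 1449695 as a cytochrome c peroxidase in a supplementary figure.

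Maltose means of the 131 genes ran from 204 to 217006 normalized counts, with a median of 6264. The maltose mean was at least 100000 for 12 genes, at least 10000 for 58 and under 1000 for 21. The median of the pine means was 399 and that of the aspen means 325. The median ratio of maltose to pine was 15.0 and that of maltose to aspen 17.3. At least 20-fold differences on both woods were seen for 39 genes, at least 50-fold for 14, and 45 genes were under 10-fold on at least 1 wood. These values chose the genes and are given as a description.

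**Figure D1:**
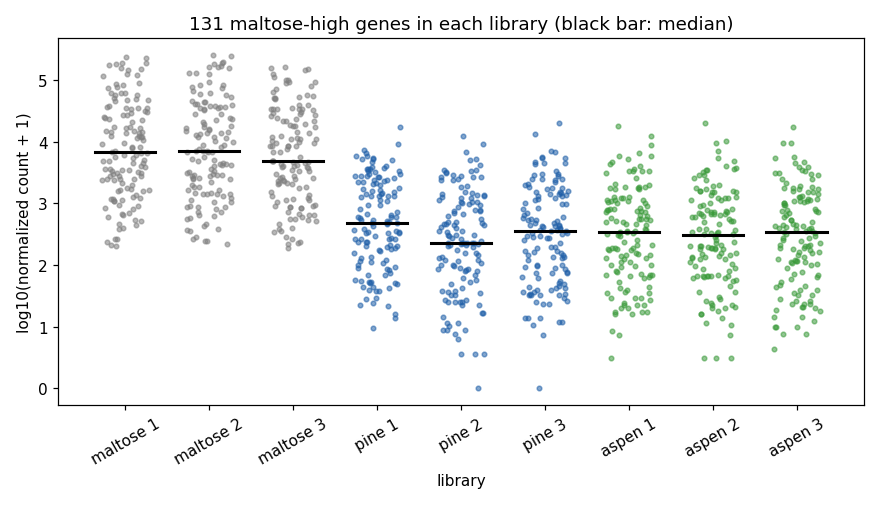
Normalized counts of the 131 genes, as log10 of the count plus 1, in each of the 9 libraries; each point is a gene and the black bar is the median of the library. The medians of the maltose libraries lie above those of all 6 wood libraries, and pine replicate 2 has the lowest median.

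In every one of the 131 genes, the highest wood library was below the lowest maltose library, against 22.0% of all 11202 genes. All 131 were also called lower on each wood at a Benjamini-Hochberg adjusted p under 0.05 by edgeR's quasi-likelihood test, where 28.8% of all 11130 genes tested were called lower on pine and 24.9% lower on aspen. The rule fixes this outcome. In bulk mycelium, fewer cells of a type and less RNA per cell cannot be told apart. Taken as a share of all raw counts, the 131 genes made up 10.5%, 10.7% and 9.58% in maltose replicates 1, 2 and 3. They made up 0.460%, 0.265% and 0.351% in the pine libraries and 0.417%, 0.389% and 0.386% in the aspen libraries. Among the 100 most abundant genes of a library, 22 or 23 were members on maltose and 0 on either wood.

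The libraries of a condition were not equally close to each other for these genes. All maltose libraries were within 2-fold of each other for 112 genes and all aspen libraries for 99, but all pine libraries for only 61. Maltose replicate 3 was the lowest maltose library for 91 genes, with a median of -0.31 on the log2 scale against the mean of the other maltose libraries, while the median over all genes was 0.01. Pine replicate 1 was the highest pine library for 92 genes, with a median of 0.56 against 0.03 over all genes, and pine replicate 2 was the lowest for 86, with a median of -0.57. Pine libraries lay over 5-fold apart for 18 genes, and pine replicate 1 was the highest in 17 of them.

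Pine replicate 1 also stood apart in how low a transcript went. Over the 7914 genes with a maltose mean of at least 200, none in pine replicate 1 was under 1% of its maltose mean, and the lowest was at 1.98%. In the other wood libraries, 16 to 22 genes were under 1% of the maltose mean, and the lowest were at 0 to 0.0416%. Between 13 and 19 of these genes per library were members. For the 5 members whose aspen mean was under 0.5% of the maltose mean, pine replicate 1 held 1.98% to 2.69% of the maltose mean, pine replicate 2 held 0 to 0.435%, pine replicate 3 held 0 to 0.254% and the aspen libraries held 0.0202% to 0.352%. A transcript that was almost gone elsewhere was thus still present at about the same small part of its maltose level in this library. Whether RNA or reads from maltose cultures reached pine replicate 1 was not tested. The counts of members called between pine and aspen are given with and without it.

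**Figure D2:**
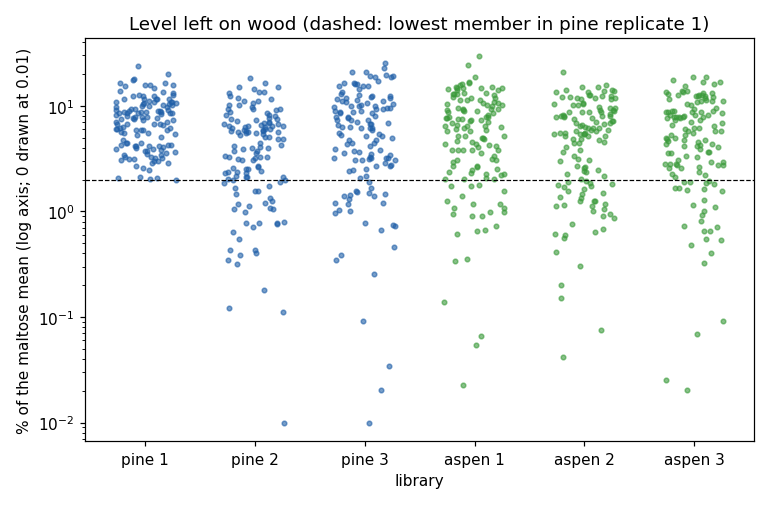
Level of each of the 131 genes in each wood library, in percent of its own maltose mean on a log axis, with values of 0 drawn at 0.01. The dashed line marks the lowest gene in pine replicate 1, at 1.98%, and all other wood libraries hold genes below it.

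The most abundant of these transcripts was 1438861, which had 232591, 257016 and 161410.2 normalized counts in maltose replicates 1 to 3. It had 17101, 12375 and 19992 in the pine libraries and 17684, 19919 and 17091 in the aspen libraries, so that it was also the member with the highest mean on each wood. Next came 1437702, with 225153, 241329.5 and 154116 on maltose, 5303, 2440.4 and 2435 on pine and 12100.2, 10040.3 and 9308 on aspen. Every aspen library was above every pine library for this gene. Neither gene is in a family list of the study.

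Gene 1434227 had 171517, 187094 and 149220.1 on maltose and fell to 236, 337 and 154 on aspen. On pine it had 3349, 207 and 155, a value about as low as on aspen in replicates 2 and 3 and far higher in replicate 1. Gene 1433314 had 188792, 195079.8 and 122841 on maltose, 5106, 1822 and 2216 on pine and 1679, 1607 and 1707 on aspen. Pine replicate 1 was again the highest wood library of this gene.

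Gene 1466450 showed the widest span of all, from 183237, 170031 and 111638 on maltose to 35.4, 64.5 and 31.3 on aspen. Its pine values were 3215, 174 and 31.7. Gene 1466629, whose protein was detected in the secretome of the maltose cultures only, followed it closely, with 144541, 159614 and 70436 on maltose, 3354, 222 and 42.8 on pine and 67.6, 94.1 and 31.3 on aspen. For both, pine replicate 3 was at the level of aspen and pine replicate 1 was not.

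Among the other members of highest maltose mean, 1460947 averaged 139322 ± 33737 in maltose cultures, 7141 ± 1946 in pine cultures and 3875 ± 477 in aspen cultures (SD, n = 3), and every pine library was above every aspen library. Gene 1427729 had 114592 ± 13391 on maltose, and its aspen values of 745, 679 and 751 lay between pine replicate 1, at 2330.0, and the other pine libraries, at 463 and 393. The other genes of this rank, 1378713 and 1369309, encode secreted proteins and are described with these.

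**Figure D3:**
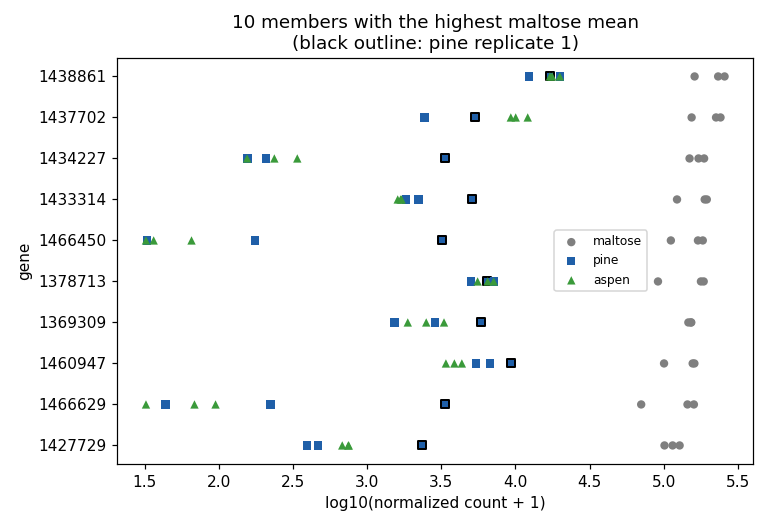
Normalized counts, as log10 of the count plus 1, of the 10 members with the highest maltose mean, with 3 grey circles for maltose, 3 blue squares for pine and 3 green triangles for aspen per gene; pine replicate 1 has a black outline. The maltose circles do not overlap the wood symbols, and in 1434227, 1466450, 1466629 and 1427729 pine replicate 1 lies apart from all other wood libraries.

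The ratio of maltose to pine depended on pine replicate 1 at its upper end. With all libraries, the highest ratio to pine was 136, in 1434227, whereas the highest ratio to aspen was 2885, in 1466450. Without pine replicate 1 the ratio to pine was 1375 for 1466450, 979.8 for 1387527, 886 for 1434227 and 875 for 1466629. The ratios to aspen of these genes were 2885, 507, 670.5 and 1680.3 in the same order. The rule itself named almost the same genes without this library, 132 with 128 of them shared.

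The smaller of both ratios was above 100 in 6 genes, and those not yet described show the same split among the pine libraries. Gene 1387527 had 10532, 12026 and 6807 on maltose, 6.43, 14.8 and 6.71 on aspen and 204, 0 and 0 on pine, being listed at 0 in pine replicates 2 and 3. Gene 1437823 had 122139.6, 128410.4 and 78911 on maltose, 2342, 478 and 279 on pine and 387, 333 and 358 on aspen. Its gene model overlaps a neighbouring one.

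**Figure D4:**
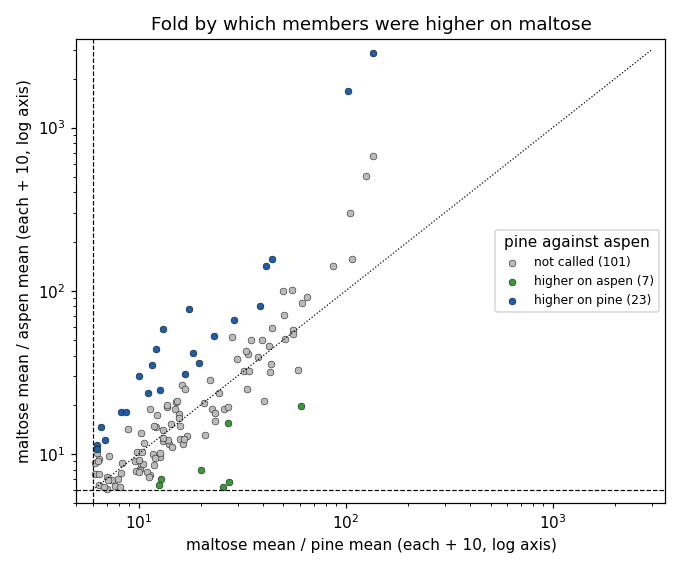
Ratio of the maltose mean to the pine mean, on the x axis, and to the aspen mean, on the y axis, for the 131 genes, with 10 added to each mean and both axes on a log scale. Dashed lines mark the limit of 6 and the dotted line equal ratios; no gene exceeds 136 on the pine axis, while the highest on the aspen axis is 2885.

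Genes just inside and just outside the limits differed little. The lowest accepted maltose mean was 204 normalized counts, in 1470278, and the highest rejected one among genes that met both ratios was 190 in 1431963. For the ratio to pine, 1376340 was accepted at 6.15 and 1458152 was rejected at 5.97. For the ratio to aspen, 1467378 was accepted at 6.08 and 1434121 was rejected at 5.87.

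Of the 131 genes, 7 encode proteins that were found by mass spectrometry among the secreted proteins, 5 of them on maltose only. The list was drawn here from the study's spectra of cultures of the same conditions, so it is not independent of these transcripts. A protein was counted as detected wherever any spectrum was listed, with no further limit set here. Gene 1378713, whose protein has a predicted signal peptide and no putative conserved domain, had 185876, 178051 and 91426 on maltose, 6457, 5006 and 7154 on pine and 6498, 7132 and 5557 on aspen. Gene 1369309, also without a conserved domain, was steady on maltose, at 152444, 153238 and 146504, with 5818, 2868 and 1531 on pine and 3298, 1879 and 2502 on aspen. Per kilobase of gene span, which includes introns, 1369309 was the most abundant of the 131 genes on maltose at 612718 normalized counts per kilobase, followed by 1437702 at 215261 and 1378713 at 200508. The span of 1369309 is the shortest of all members, at 246 bases, against a median of 1556.

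The genes of the other secreted proteins had lower maltose means. Gene 1453798 averaged 27727 ± 7409 in maltose cultures, 679 ± 540.1 in pine cultures and 1298 ± 195 in aspen cultures (SD, n = 3). Gene 1468947 had 3833 ± 437 on maltose, 464 ± 130.0 on pine and 601 ± 35.5 on aspen. Both proteins were detected on maltose only, and both transcripts were present on wood. Gene 1372485, with a cupin-like domain, a barrel fold shared by many unrelated enzymes and storage proteins, had 5570.1, 10132 and 11154 on maltose, 496, 226 and 289 on pine and 441, 523 and 434 on aspen. Its maltose libraries differed by over 2-fold among themselves.

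CAZy families held 3 members. Gene 1427559 carries CBM50, the LysM module, which binds chitin and related sugar polymers, and its protein was detected on maltose and on wood. It had 27379, 28272 and 24467 on maltose, 2724, 2713 and 6794 on pine and 2057, 1587 and 1839 on aspen, and pine replicate 3 was its highest wood library. The expansin-related gene 1373750 belongs to a group of proteins known for loosening cell walls without cutting them. Its values were 7000.2, 6906 and 4885 on maltose, 369.5, 211 and 416 on pine and 184, 143 and 99.5 on aspen, with every pine library above every aspen library. Gene 1424219, of glycosyltransferase family GT1, whose members pass sugars to small molecules such as sterols, had 3038, 2551 and 2582 on maltose, 238, 105 and 121 on pine and 211, 211 and 212 on aspen.

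The P450 1461855, of the class of heme monooxygenases that insert oxygen into lipids, sterols or aromatic compounds, had 2768, 3023 and 2413 on maltose, 544, 221 and 515 on pine and 327, 188 and 275 on aspen. It lay close to the limit for pine, with a ratio of 6.28. The study also names 1449695 as a cytochrome c peroxidase (CCP), a heme enzyme that removes hydrogen peroxide with electrons from cytochrome c, in yeast in the mitochondria. This gene, singled out after its values were seen, had 17488, 19270.3 and 18759 on maltose, 1662, 1025 and 2845 on pine and 708, 500.1 and 605 on aspen.

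Genes of unknown function made up 35.1% of the members, 46 of 131, against 18.9% of all genes in the normalized tables. Of these, 36 had no predicted signal peptide, with a median maltose mean of 4013, and 10 had a predicted signal peptide, with a median of 2990. The 77 genes in no list had a median maltose mean of 12113, and the 2 most abundant transcripts were among them. The study listed unknown genes from transcripts seen in these libraries, so the list is not independent of them.

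Across whole lists, a fall on wood was not general in the GT1 and P450 families, which hold 1 member each. Of all genes tested, 28.8% were lower and 29.1% higher on pine, and 24.9% were lower and 26.3% higher on aspen. Of the 9 GT1 genes, 3 were lower and 3 higher on pine, and 4 were lower and 4 higher on aspen. Of 61 P450 genes, in a list that the study restricted by values in these libraries, 19 were lower and 34 higher on pine, and 21 were lower and 36 higher on aspen. Multicopper oxidases of AA1, the laccase family, had 4 of 7 lower and 0 higher on pine and 5 of 7 lower and 0 higher on aspen. Their median log2 fold changes were -2.03 and -2.66, beside -0.03 and -0.02 over all genes. None of these 7 is a member, 2 being left out by the rule and 5 not meeting its limits. Of the 9 starch and maltose hydrolases, the enzymes nearest to the use of maltose itself, 2 were lower and 7 higher on pine and 2 were lower and 6 higher on aspen. None of these 9 is a member.

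Of the 21 proteins detected in the secretome on maltose only, 12 had lower transcripts on pine and 11 on aspen, while 7 were higher on each wood. The median log2 fold changes were -1.78 on pine and -0.53 on aspen, and the 5 members are among those that were lower. Of 1809 unknown genes without a signal peptide, 502 were lower and 889 higher on pine, 27.8% and 49.1%, so the share lower was near that of all genes.

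The rule did not use the difference between the woods, but it bears on it. It held both wood means down and dropped the genes that met the limits on 1 wood only, so how many members differed between the woods, and by how much, is partly limited by the choice of genes. By edgeR's quasi-likelihood test, with p-values adjusted over 11130 genes after Benjamini-Hochberg, 23 of the 131 were higher on pine and 7 were higher on aspen, while 101 did not pass. The 30 called of the 131 members are a smaller share than the 30.3% of all genes called in either direction. By direction, 17.6% of members were higher on pine against 15.2% of all genes, and 5.34% higher on aspen against 15.1%. At an unadjusted edgeR p under 0.05, 42 members differed, with no share over all genes counted at that limit. The fitted difference was under 2-fold for 100 members, and the median log2 fold change of pine against aspen was 0.08, with a median over all genes of -0.05. Every pine library was above every aspen library for 26 of the 131 members, a share close to the 20.8% of all genes. Every aspen library was above every pine library for 10 of the 131, a smaller share than the 24.3% of all genes.

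This split depended on pine replicate 1. Without it, 18 members were higher on pine and 27 were higher on aspen, where 17.8% and 19.7% of all genes were called. All 18 had been called higher on pine with the library included, and all 7 that had been called higher on aspen were called again. The majority of the called members was thus higher on aspen, as it was among all genes called. The 27 of 131 higher on aspen are close to the share of all genes, and the 18 higher on pine are below it. The 20 newly called members were all higher on aspen, 16 with the sign they had with all libraries. Over the 9 fits that left out 1 library each, 23 to 45 members were called, and 16 of the 30 calls held in all of them. With the prefix of the library code as a term, 13 members were called, 9 higher on pine and 4 higher on aspen. No pine library carried the prefix PAU and 1 aspen library carried PAW, so that term rests on few libraries. Within the PAW libraries, and within the libraries trimmed to 70 and to 78 bases, all 30 called members kept their direction, but each of these comparisons has a wood with 1 library and uses the libraries that made the calls, so it is no independent check.

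**Figure D5:**
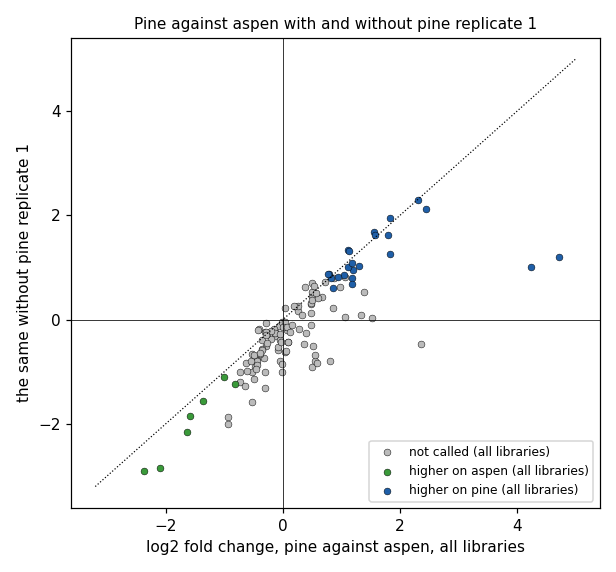
Fitted log2 fold change of pine against aspen with all libraries, on the x axis, and without pine replicate 1, on the y axis, with the dotted line marking equality; colours give the call with all libraries. Gene 1387527, at 0 in both remaining pine libraries, is not drawn. Genes 1466450 and 1466629 fall from 4.72 and 4.24 to 1.21 and 1.02.

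The members with the largest fitted difference toward pine had values that rested on pine replicate 1. For 1466450 the log2 fold change was 4.72 (SE 1.20, edgeR adjusted p = 0.011), and without that library it was 1.21 (edgeR adjusted p = 0.11). For 1466629 it was 4.24 (SE 1.14, edgeR adjusted p = 0.015), and without that library 1.02 (edgeR adjusted p = 0.21). Over the alternatives, the edgeR or DESeq2 adjusted p ran from 0.0002 to 0.11 for 1466450 and from 0.001 to 0.21 for 1466629. Other calls lost without that library, 1460947, 1430053 and 1428636, were also lost without each of several other libraries, among them aspen replicate 2 and aspen replicate 3 for all of them.

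Other differences toward pine did not rest on that library. Gene 1463826, of unknown function with a predicted signal peptide, had 236, 84.2 and 197 on pine and 34.3, 35.9 and 22.4 on aspen, after 2720.0, 3284 and 3494 on maltose. Its log2 fold change of pine against aspen was 2.45 (SE 0.35, edgeR adjusted p = 0.00052), and it was 2.12 without pine replicate 1. Gene 1428787 had 265, 119.8 and 420.3 on pine and 42.9, 45.5 and 70.4 on aspen, with a log2 fold change of 2.31 (SE 0.38, edgeR adjusted p = 0.0011). Gene 1434006 had 2396, 3068 and 3378 on pine and 453, 922 and 1057 on aspen, with a log2 fold change of 1.83 (SE 0.28, edgeR adjusted p = 0.00075), and here pine replicate 1 was the lowest pine library. In all 3 genes the pine and aspen libraries did not overlap. The models of 1428787 and 1434006 each overlap a neighbouring gene model, and since the counting is not stated to use strand, their reads may include some from that neighbour.

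Of the annotated members, the CCP gene 1449695 was higher on pine by 1.57 on the log2 scale (SE 0.30, edgeR adjusted p = 0.0026), and by 1.63 without pine replicate 1. The expansin-related gene 1373750 was higher on pine by 1.19 (SE 0.29, edgeR adjusted p = 0.0093). With the library code prefix as a term its value was 1.24, and the call was lost. The LysM gene 1427559 was higher on pine by 1.12 (SE 0.31, edgeR adjusted p = 0.016), a call lost without pine replicate 3 (adjusted p = 0.063) or without aspen replicate 2 (adjusted p = 0.064), both from edgeR, in a range of 0.0014 to 0.1 over the alternatives. The P450 1461855 and the GT1 gene 1424219 were not called, with log2 fold changes of 0.67 and -0.46. Without pine replicate 2, 1461855 was called higher on pine at 0.99 (edgeR adjusted p = 0.017, range over the alternatives 0.017 to 0.38). Without pine replicate 1, 1424219 was called higher on aspen, with a log2 fold change of pine against aspen of -0.95 (edgeR adjusted p = 0.0033, range over the alternatives 0.0033 to 0.58).

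Among the secreted proteins, 1453798, 1372485 and 1468947 were not called with all libraries, at -0.94, -0.48 and -0.39. Without pine replicate 1 they were called higher on aspen, at -1.86, -0.90 and -0.66, and over all alternatives the edgeR or DESeq2 adjusted p ran from 0.00091 to 0.34, 0.033 to 0.69 and 0.019 to 0.5.

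Toward aspen, the most abundant member called was 1437702, with a log2 fold change of -1.64 for pine against aspen (SE 0.33, edgeR adjusted p = 0.0034). It was called under every alternative. Gene 1438634 had 797, 548 and 573 on pine and 1845, 1576 and 1406 on aspen, a log2 fold change of -1.35 (SE 0.23, edgeR adjusted p = 0.0014), and it too was called under every alternative. Gene 1440355 had 40.8, 7.90 and 31.7 on pine and 292, 80.4 and 42.5 on aspen, a log2 fold change of -2.37 (SE 0.71, edgeR adjusted p = 0.025). Aspen replicate 1 stands far above the others there, and the call was lost without aspen replicate 1, pine replicate 2 or pine replicate 3, at edgeR adjusted p = 0.18, 0.099 and 0.058.

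The other aspen-high members described here were of unknown function without a signal peptide. Gene 1447422 had 266, 94.8 and 88.8 on pine and 994, 254 and 682 on aspen, a log2 fold change of -2.10 (SE 0.48, edgeR adjusted p = 0.0069), although pine replicate 1 was above aspen replicate 2. With the trim length of the reads as a term its value was -1.79, and the call was lost (edgeR adjusted p = 0.0502). Gene 1470278, the member with the lowest maltose mean, had 8.59, 5.27 and 6.34 on pine and 19.3, 25.4 and 16.8 on aspen, a log2 fold change of -1.59 (SE 0.40, edgeR adjusted p = 0.01). Its groups did not overlap, at low counts on both woods. With the library code prefix as a term its value was -1.54, and the call was lost.

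The members were often close to each other in the genome. In the gene order of assembly Pycco1, 35 of the 131 had another member within 5 gene models, which is 26.7% of members against 8.94% of all gene models, and 20 were directly next to a member, 15.3% against 2.02%. There were 22 such pairs, 10 of them side by side, and 3 pairs had overlapping spans. Reads of an overlapping pair could not be assigned with certainty, so 189492 beside 1466629, which share 103 bases, 439739 beside 1368209, which share 112, and 1475879 beside 1475880, which share 72, are uncertain as separate genes. In each of these pairs the less abundant gene had a maltose mean far below that of its partner, 3740.4 against 124864 for the first, 2419 against 33638 for the second and 313 against 2738 for the third. Overlap with any neighbour was found for 26 members, 19.8%, against 24.6% of all gene models.

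The longest runs held 3 members each. In the first, 1434227 lay next to 1365112, 576 bases apart, and 1444367 followed 2813 bases further on. Their maltose levels were unequal, 169277, 40812 and 245 normalized counts, not corrected for length. Gene 1365112 was higher on pine than on aspen, with 2532, 1279 and 1475 against 824, 708 and 769 and a log2 fold change of 1.18 (SE 0.28, edgeR adjusted p = 0.0075). With the library code prefix as a term its value was 1.01, and the call was lost. Its neighbours were not called.

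In another run, 1438634 and 1438635 lay 493 bases apart, and 1427383 lay 3013 bases from the nearer of them. Although close together, these members differed between the woods in opposite directions. Gene 1427383 had 2200.0, 1529.5 and 1421 on pine and 531, 727 and 948 on aspen, a log2 fold change of 1.21 (SE 0.29, edgeR adjusted p = 0.0086). With the library code prefix as a term its value was 0.79, and the call was lost. Gene 1438635 had 2798, 1202 and 1694 on pine and 3329.6, 3519.8 and 3089 on aspen, a log2 fold change of -0.82 (SE 0.28, edgeR adjusted p = 0.043). The call of 1438635 was lost in 8 of the 9 fits without 1 library, held only without pine replicate 1, and had adjusted p-values from 0.0023 to 0.18 over the edgeR and DESeq2 alternatives.

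A run around the P450 held 1376903, 1440097 and 1461855. Gene 1440097, of unknown function, lay 306 bases from the P450, with maltose means of 23301 against 2735 normalized counts. It was higher on pine, with 2100.1, 1365 and 2052 against 1085, 714 and 1013 on aspen and a log2 fold change of 0.95 (SE 0.25, edgeR adjusted p = 0.014), a call lost without aspen replicate 2 (edgeR adjusted p = 0.067, range 0.00089 to 0.15).

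Of the side-by-side pairs, 1379829 and 1400693, 186 bases apart, were both called higher on pine. Gene 1379829 had 119059, 125430.4 and 89173 on maltose, 3550.3, 2375 and 2718 on pine and 1051, 1259 and 1795 on aspen. Gene 1400693 had 2459, 2428 and 2752, 153, 239.6 and 269.6 and 51.5, 124 and 121 in the same conditions. The log2 fold changes of pine against aspen were 1.05 (SE 0.26, edgeR adjusted p = 0.011) and 1.12 (SE 0.30, edgeR adjusted p = 0.014), and each was lost when 1 library was left out, aspen replicate 1 for the former (edgeR adjusted p = 0.052) and pine replicate 2 for the latter (edgeR adjusted p = 0.0503).

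In the pair 1443074 and 1361970, 607 bases apart, the more abundant gene 1443074 was steady on maltose, at 51023, 52678 and 51711. It had 1476, 964 and 1304 on pine and 174, 465 and 424 on aspen, a log2 fold change of 1.79 (SE 0.32, edgeR adjusted p = 0.0017), and it was called under every alternative. Its neighbour 1361970, of unknown function, had 606, 337 and 358 on pine and 557, 658 and 529 on aspen and was not called, with a log2 fold change of -0.44. Without pine replicate 1 it was called higher on aspen at -0.78 (edgeR adjusted p = 0.021, range 0.021 to 0.51). The most abundant member, 1438861, had 1438863 as a member 6570 bases away, with 77379, 75587 and 91699.8 on maltose, 7194, 8993 and 13349 on pine and 8768, 9533 and 9634 on aspen. Neither differed between the woods beyond the test.

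Of the 35 members with another member nearby, 9 were higher on pine and 2 on aspen, 25.7% and 5.71%, where 15.2% and 15.1% of all genes were called. Without pine replicate 1, 8 of the 35 were higher on pine and 7 on aspen, where 17.8% and 19.7% of all genes were called. Gene 163808, which lies 4 gene models from 1387527, shows how unlike neighbours could be: it had 946, 1031 and 1316 on pine and 547, 606 and 709.7 on aspen, where 1387527 was close to 0 in all wood libraries but pine replicate 1.

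Some of the 131 genes were nearly silent on wood and others were not. Both wood means were under 50 normalized counts for 18 members, and both were at least 1000 for 31. As a percentage of the maltose mean, the median member was at 7.32%, 4.06% and 5.86% in pine replicates 1, 2 and 3 and at 5.85%, 5.45% and 5.26% in aspen replicates 1, 2 and 3. The highest in any wood library was 29.5%, in aspen replicate 1.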

How the data were processed

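RNA from 9 liquid cultures was sequenced as paired reads. Per the labels and methods, the authors aligned reads with TopHat2 to this strain's genome, keeping unique matches, obtained gene counts with HTSeq, and normalized them with a tool that the notes give as DESeq 1.5. The deposited raw files hold counts for 12690 genes, and the deposited normalized files hold signal values, raw counts multiplied by 1 constant per library (0.990 to 1.59), for 11202 genes. Levels in the text are these normalized counts with the SD over 3 cultures. Strand use in counting is not given in the sources used here.

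Raw counts were tested in R 4.3.3 with edgeR 4.0.16 (TMM scaling, quasi-likelihood model with 3 groups, genes with a mean raw count of at least 5, 11130 genes), with Benjamini-Hochberg adjustment over all of them. SE restates the test, being the absolute log2 fold change over the root of its F statistic. The method was tested on simulated data. DESeq2 1.42.0 was an alternative.

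Pine against aspen was tested; contrasts with maltose chose the genes and are described only. The members, lists and naming rule were chosen with earlier results of these data known. Genes named were the 10 highest on maltose, the 6 with the largest smaller ratio, annotated members, up to 5 called toward each wood, neighbours and genes at the limits. Of the gene numbers, 12680 matched assembly Pycco1, used for gene order, spans and distances. Lists that need product names and a promoter search could not be run, as no product names or sequences were used here. Replicates differed from each other beyond sampling noise, and no 2 libraries were merged. Same-numbered libraries did not deviate together in all pairs, so the numbers were not taken as pairs.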

Additional observations from a re-analysis of the deposited data

Results flagged for a closer look

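The members below were those with the largest called differences between their falls on pine and on aspen, given as the fitted log2 fold change of pine against aspen from edgeR's quasi-likelihood test; both falls share the maltose libraries. Toward pine, the values were 4.72 for 1466450, 4.24 for 1466629, 2.45 for 1463826, 2.31 for 1428787 and 1.83 for 1434006. The first of these rest on pine replicate 1, without which 1466450 was at 1.21 and 1466629 at 1.02, neither called. Toward aspen, the values were -2.37 for 1440355, -2.10 for 1447422, -1.64 for 1437702, -1.59 for 1470278 and -1.35 for 1438634. With 3 libraries per group, no formal outlier test was run on single values.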

How the results depend on the processing

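The number of genes meeting the rule was 131, and 235 with a ratio of at least 4; with the other choices of pseudocount, ratio, maltose mean and scaling it was 100 to 137. Leaving out 1 library each, it was 127 to 148. All 131 were called lower on pine than on maltose under every alternative, and 130 or 131 lower on aspen. The rule fixes this outcome, so it is no check on the choice of genes. For pine against aspen, 30 members were called, 13 with the library code prefix as a term (9 higher on pine, 4 higher on aspen), and 23 to 36 under the remaining alternatives that kept all libraries. Without 1 library each, 23 to 45 were called, 16 to 28 higher on pine and 5 to 27 higher on aspen, the 27 without pine replicate 1. Shares of all genes called are given here only for the edgeR fits of the 3 groups with all libraries and without pine replicate 1. With the replicate number as a block, 36 were called, all 30 called without the block among them, with 11 higher on aspen in place of 7. Correlations of deviations between same-numbered libraries ran from -0.10 to 0.41, and not every library was closest to those of its own number. Of the 30 calls, 11 held under all 15 alternatives. Without pine replicate 1, 20 members not called before were called higher on aspen, 16 with the sign they had before and 4 with the other. Over the fits without 1 library, 1427729 ran from -0.80 to 0.95, 1501942 from -0.91 to 0.90 and 1387527 from -6.07 to 3.49, the lowest being without pine replicate 1 in each case; for 1387527 that is a fitted value against pine libraries at 0 that depends on the prior count and is no bound. Without the 10 most abundant genes of each library, the share of counts was 10.1%, 10.2% and 8.59% in maltose replicates 1, 2 and 3. It was 0.514%, 0.298% and 0.389% in the pine libraries and 0.457%, 0.430% and 0.426% in the aspen libraries. Members among those 10 genes numbered 2, 2 and 3 in the maltose libraries and 0 in each wood library. On wood the shares therefore rose because only the total of counts became smaller. The cause of the other shifts above was not tested. Depth limits the lowest wood levels, where members had few counts.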
